A study of Caenorhabditis elegans with 22 samples.

Results

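Body wall muscle cells of *met-2* larvae were compared with those of N2 larvae to ask which genes change their RNA level in a differentiated tissue that lacks MET-2. The comparison rests on 4 of the 22 libraries of the series. They are 2 libraries from *met-2(n4256)* III animals and 2 from N2 (Bristol), the wild type, all from L3 larvae synchronized at the first larval stage, and the labels describe the replicates as biologically independent. Of 20392 genes in the table, 9167 had enough counts in the muscle libraries to be tested, and every one of them was considered. According to the study's methods and strain list, muscle cells were taken by flow cytometry from larvae that carry the *gwIs4* transgenes, which express a red fluorescent protein (RFP) from the *myo-3* promoter and a green fluorescent fusion from the *baf-1* promoter, with a *let-858* 3′ end. The labels name *gwIs4* for neither group. The sorted cells are therefore those in which the *myo-3* promoter is active, and several animals contribute to each library. Muscle libraries of the *set-25* mutant and of the double mutant entered the fit to share its estimate of the spread. They also took part in the low-count filter and the scaling, and 8485 genes were tested with the 4 libraries alone.

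MET-2 is a SETDB1-like enzyme that attaches methyl groups to lysine 9 of histone H3 (H3K9) and is needed for mono- and dimethylation of this residue in *C. elegans*. H3K9 methylation marks silent chromatin, is dense on repeats and on the outer parts of the worm's autosomes, and can hold tissue-restricted genes silent outside their own tissue. Body wall muscle is the striated muscle of the worm, and most of its cells no longer divide in larvae. Among the genes known to be silent there are those of the germline, which include the components of P granules (cytoplasmic RNA and protein bodies of germ cells), the small RNA pathways that are most active in germ cells, and the machinery of meiosis.

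The *met-2* libraries held 14168042 and 12966116 counts and the N2 libraries 14313547 and 13249140, with at least 10 counts for 8374 and 8324 genes in *met-2* and for 8311 and 8032 genes in N2. Replicates correlated at r = 0.960 in *met-2* and 0.954 in N2 across genes (log2 CPM), while libraries of different genotype reached 0.915 and 0.911. CPM is the usual library-scaled count, each gene's count divided by its library's total and brought to a common total. The labelled tissue was checked against 16 muscle markers. All 16 exceeded 5 CPM in both groups, and their summed level was 135242 and 139761 CPM in *met-2*, against 133620 and 139432 CPM in N2. None of the 16 was called in either direction. Markers of other cell types were low beside those of muscle: summed levels stayed between 0.528 and 262 CPM for neuron, intestine, hypodermis, seam cell, pharynx, glia, coelomocyte, sex myoblast and somatic gonad lists in the 4 libraries. None of their genes was called higher, and the listed intestine genes *elt-2*, *vit-2*, *vit-6* and *fat-7* were at 0 in all 4 libraries. In N2 cells sorted as negative for the muscle reporter, the neuron list summed to 144 and 174 CPM, less than in each of the 4 libraries. The intestine list summed to 115 and 109 CPM there, close to its 90.4 to 106 CPM in the 4 libraries. These 2 lists therefore do not show that the sort removed such cells, while the other lists summed higher in the negative cells. The hypodermis list summed to 100.6 and 101.7 CPM over 17 genes in *met-2*, against 62.9 and 62.9 CPM in N2, and its part in the results was not tested. In sorted cell populations, a lower level of a transcript in each cell and a smaller number of cells that hold it cannot be told apart.

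The *met-2* transcript itself does not check the genotype labels, because the counts are summed over all exons of a gene. It had 26 and 27.3 CPM in *met-2* muscle, against 42.8 and 46.5 CPM in N2 muscle. The groups did not overlap, but the fitted log2 change of -0.77 ± 0.257 (SE) did not pass (adjusted p 0.197). *set-25*, which encodes the other main H3K9 methyltransferase, had 11.5 and 9.64 CPM in *met-2* and 10.8 and 9.74 CPM in N2.

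Of the genes tested, 199 were higher in *met-2* muscle (2.17%) and 6 were lower (0.0655%). A gene was called where the quasi-likelihood test of edgeR gave a Benjamini-Hochberg adjusted p under 0.01 and the level differed by more than 2-fold. That fold was taken on the log2FC scale, the difference of mean log2(scaled count + 8), whose pseudocount of 8 understates changes of weakly expressed genes. At an unadjusted p under 0.05 the counts were 721 higher and 358 lower, and higher genes made up 97.1% of the calls. The median log2FC of the higher genes was 3.48, the lowest 1.25 and the highest 7.61, and all genes tested had a median of 0.01. For genes silent in N2, a bound of 3 counts over both N2 libraries gave a log2 CPM ratio without the pseudocount. With these ratios in place of their log2FC the median was 3.76, which mixes the scales. In every called gene both *met-2* libraries lay on the same side of both N2 libraries. Among all genes tested, 23.6% had both *met-2* libraries above N2 and 19.2% had both below. The *met-2* libraries differed from each other by less than 2-fold for 193 of the 199 genes, with a median ratio of 1.18. The calls used these same libraries, so the separation of the groups and the closeness of replicates in called genes are partly fixed by the choice.

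**Figure D1:**
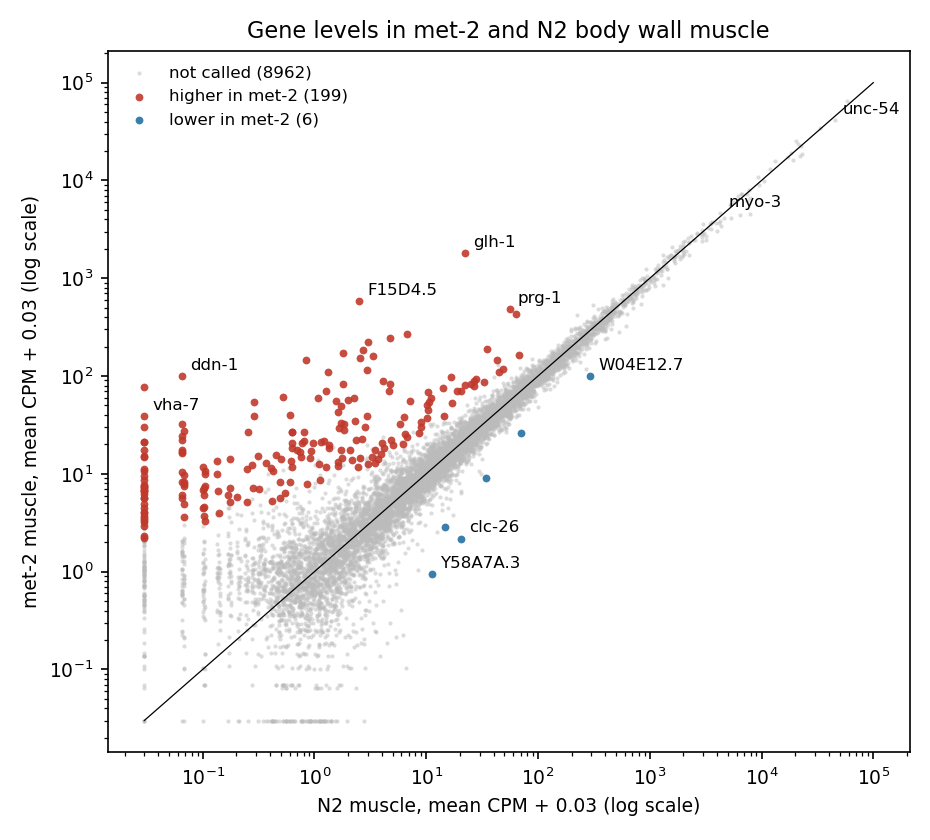
Mean CPM in met-2 muscle (vertical axis) against mean CPM in N2 muscle (horizontal axis) for 9167 genes, both on log scales after 0.03 was added, with 2 libraries per group. The 199 higher genes spread over N2 levels from 0 upwards, the 6 lower genes lie under the diagonal of equal level, and the muscle myosin genes unc-54 and myo-3 lie close to it.

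The higher genes were low in N2, which is partly fixed by the choice, since they were called on these same libraries. Genes with no count in N2 could pass the low-count filter only through mutant libraries. On the RPKM scale (CPM per kilobase of exon), their median was 11.4 in *met-2* and 0.479 in N2, and 164 of them exceeded 5 RPKM in *met-2*. All genes tested had medians of 6.62 RPKM in *met-2* and 6.13 RPKM in N2. In N2, 88.9% of the higher genes were under 5 RPKM, beside 45.6% of genes tested, and 22 were at 5 RPKM or more. Of the 199, 131 were under 1 RPKM in N2, and 33 had no count in either N2 library. A further 33 had 1 to 3 counts over both N2 libraries. With the 33 silent genes set to a bound of 3 counts over both N2 libraries, the median rise was 30.3-fold in mean CPM, 143 genes exceeded 10-fold and 36 exceeded 100-fold. Few of them reached a high level: 19 had a mean of 100 CPM or more in *met-2*, 58 lay under 10 CPM, and the rest lay between. The 199 genes together took 1.02% of all counts in *met-2* and 0.0936% in N2.

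By log2FC, with its pseudocount of 8, the largest rise was that of F15D4.5 (WBGene00008862, chromosome II), at 7.61. It had 561 and 606 CPM in *met-2*, against 1.82 and 3.17 CPM in N2, a fitted log2 change of 7.84 ± 0.289 (SE, adjusted p 6.09e-08). Its mean CPM ratio was 234-fold. Several genes at or near 0 in N2 had a larger ratio or lower bound, *ddn-1*, WBGene00019208 and *vha-7* among them. *ddn-1* (chromosome V) had 108 and 91.3 CPM in *met-2*, against a single count over both N2 libraries (adjusted p 9.79e-08). The pooled ratio was 2751, with a 95% counting interval of 493 to 108689, and such intervals cover counting error only, since reads amplified by PCR without molecular identifiers are not independent molecules. WBGene00019208 (chromosome II), for which no name was found, had 61.5 and 94.2 CPM in *met-2* and no count in N2, at least 709-fold higher. *vha-7* (chromosome IV) is one of several genes for the membrane-spanning a subunit of the V-ATPase proton pump. It had 40.6 and 37.7 CPM in *met-2* and no count in N2, at least 360-fold higher (adjusted p 2.94e-06). The other 20 V-ATPase genes tested were not called.

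Other large rises were those of C38D9.2 on chromosome V, at 45.6 and 61.6 CPM in *met-2* and 0.210 and 0.302 CPM in N2, and *herd-1* on chromosome III, at 246 and 200 CPM in *met-2* and 3.91 and 2.04 CPM in N2. *snpc-1.2*, which encodes a subunit of the complex that activates small nuclear RNA genes, had 101.1 and 118 CPM in *met-2*, against 1.68 and 0.906 CPM in N2. C53A5.9 had 33.0 and 31.2 CPM in *met-2* and 1 count in N2. The remaining unnamed genes of the leading group were B0507.6, Y2H9A.6, R03H10.6, Y54G11A.4 and C08F11.7, each between 18.7 and 33.2 CPM in the *met-2* libraries and with at most 1 count over both N2 libraries. Sequence names or identifiers alone stood for 88 of the 199 genes (44.2%), compared with 36.3% of the genes tested.

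Germ granule components formed one of the largest groups of named genes. Of 21 tested P granule and germ granule genes, 6 were higher and none was lower in *met-2*, a share of 28.6% beside 2.17% of all genes. The median log2FC of the list was 0.32, beside 0.01 for all genes tested. *glh-1*, a Vasa-like helicase of P granules, had the highest level of all 199 genes. It stood at 1808 and 1774 CPM in *met-2* muscle, against 29.6 and 14.8 CPM in N2 muscle, a fitted log2 change of 6.31 ± 0.339 (adjusted p 2.96e-07). On library totals, both *met-2* libraries lay between those of N2 non-muscle cells, which had 1899 and 1384 CPM. These cells are the fraction sorted as negative for the muscle reporter. With scaling by the bulk of genes (TMM), both *met-2* libraries lay above both non-muscle libraries. *lotr-1*, a LOTUS and Tudor domain protein of germ granules, had 141 and 147 CPM in *met-2*, against 1.26 and 0.377 CPM in N2. *pid-2*, which acts in piRNA-dependent silencing, had 270 and 222 CPM in *met-2*, against 6.78 and 2.64 CPM in N2.

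Transcripts of the founding P granule proteins behaved alike in direction but reached lower levels. *pgl-1* had 113 and 120 CPM in *met-2*, against 3.70 and 2.19 CPM in N2 (fitted log2 change 5.27 ± 0.705, adjusted p 0.000784). Its paralog *pgl-3* had 17 and 25.4 CPM in *met-2*, against 1.68 and 0.528 CPM in N2. *mip-2*, which encodes a LOTUS domain partner of GLH-1, had 7.48 and 6.32 CPM in *met-2*, against 0.349 and 0.226 CPM in N2. The groups were separate for all of these genes. Over the 21 tested germ granule genes, called and uncalled, both *met-2* libraries lay above both N2 libraries for 12 and below them for 2. The shares over all genes tested were 23.6% above and 19.2% below.

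Argonaute proteins bind small RNAs and carry out silencing, and 7 of the 17 tested genes of this family were higher in *met-2* (41.2%), with none lower. All 7 were worm-specific or Piwi family Argonautes. *prg-1*, the Piwi protein that binds piRNAs, had 454 and 516 CPM in *met-2*, against 61.5 and 49.97 CPM in N2, so its transcript was already present in wild-type muscle libraries (fitted log2 change 3.09 ± 0.193, adjusted p 1.45e-06). *vsra-1* had 240 and 299 CPM in *met-2*, against 7.27 and 6.11 CPM in N2. *hrde-1*, the nuclear Argonaute of heritable silencing, had 160 and 145 CPM in *met-2*, against 2.52 and 2.57 CPM in N2 (5.88 ± 0.260, adjusted p 9.79e-08). These values put all *met-2* libraries well above the N2 libraries.

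The cytoplasmic Argonautes that bind secondary small RNAs followed. *wago-4*, which transmits silencing to progeny, had 52.4 and 69.4 CPM in *met-2* and 0.908 and 0.0755 CPM in N2. *wago-1* had 82.9 and 83.8 CPM in *met-2* and 7.34 and 2.04 CPM in N2. *ppw-1* had 32.7 and 36.9 CPM in *met-2* and 3.28 and 1.28 CPM in N2, and *sago-2* had 27.7 and 28 CPM in *met-2* and 2.096 and 1.51 CPM in N2. No library of one genotype reached those of the other. *ppw-2*, named after its values were seen, had 21.9 and 13.6 CPM in *met-2* and 4.75 and 1.74 CPM in N2, and it missed the threshold (2.43 ± 0.544, adjusted p 0.0289). The microRNA Argonaute *alg-1* was not called, at 42.8 and 51.9 CPM in *met-2* and 71.5 and 49.8 CPM in N2, nor was *rde-1*, the Argonaute that starts RNA interference, at 37.4 and 25.1 CPM in *met-2* and 21.7 and 25.3 CPM in N2.

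Genes that make or amplify small RNAs had fewer called members. None of the 14 piRNA biogenesis genes tested was called. *snpc-4*, a factor bound at piRNA genes, had 5.22 and 12.1 CPM in *met-2* and 6.50 and 3.70 CPM in N2. Among 38 genes of RNA interference amplification and transport, 4 were higher (10.5%) and none was lower. They were *rrf-2*, an RNA-dependent RNA polymerase (65.1 and 72.3 CPM in *met-2*, 8.52 and 12.3 CPM in N2), *morc-1*, an ATPase of nuclear silencing (71.0 and 79.8 CPM in *met-2*, 15.6 and 12.3 CPM in N2), *ekl-1*, a Tudor domain protein (83.4 and 58.3 CPM in *met-2*, 14.1 and 23.3 CPM in N2), and *nrde-2*, a nuclear RNA interference factor (87.0 and 85.8 CPM in *met-2*, 38.8 and 27.2 CPM in N2). *ekl-1* and *nrde-2* had the smaller fitted log2 changes of the 4, at 1.89 ± 0.283 and 1.37 ± 0.234. The count in this list was 2 without *met-2* replicate 1 or without N2 replicate 1, and 3 without either of the others.

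Meiotic chromosome genes gave 6 higher of 32 tested (18.8%) and none lower. *syp-1*, a central part of the synaptonemal complex that joins paired chromosomes, had 25.5 and 27.4 CPM in *met-2*, against 0.210 and 0.981 CPM in N2. The meiotic cohesin *rec-8* had 13.1 and 15.2 CPM in *met-2*, against 0.140 and 0.151 CPM in N2. Of the HORMA domain proteins of the chromosome axis, *htp-1* had 19.3 and 34.6 CPM in *met-2* and 0.419 and 1.13 CPM in N2, *him-3* had 19.97 and 21.5 CPM in *met-2* and 1.12 and 0.755 CPM in N2, and *htp-3* had 7.69 and 13.8 CPM in *met-2* and 0.419 and 0.377 CPM in N2. *zhp-2*, a RING finger protein of meiotic chromosomes, had 11.5 and 13.2 CPM in *met-2* and 0.489 and 0 CPM in N2. The recombinase gene *rad-51*, which also serves DNA repair outside meiosis, had 11.29 and 10.5 CPM in *met-2* and 16.3 and 12.2 CPM in N2 and was not called. Only 5 transcripts of germline mRNA regulation and gamete lists joined these: *ife-5* (a cap-binding eIF4E protein, 32.9 and 46.6 CPM in *met-2*, 0.769 and 0.377 CPM in N2), *gld-1*, *puf-7* (a Pumilio family RNA-binding protein), *cbd-1* (an eggshell protein, 46.2 and 67.0 CPM in *met-2*, 1.33 and 2.57 CPM in N2) and *spe-15* (a myosin of sperm formation, 18.3 and 17 CPM in *met-2*, 1.33 and 0 CPM in N2). *spe-15* was not called with scaling by library totals, with DESeq2 or with the 4 compared libraries alone. *spe-15*, *pid-2*, *him-3*, *prg-1* and *sago-2* overlap a gene on the opposite strand, so their counts are less certain. The same holds for *set-31*, *nxf-2*, *spd-5*, *tsp-7* and *sbt-1*.

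Over the 8 germline and small RNA lists together, 28 of 158 tested genes were higher (17.7%) and none was lower, and the median log2FC was 0.27. Several genes that mark germ cells, and germline stem cells in particular, were not called. *glp-1*, the Notch receptor of germline stem cells, had 0.776 and 1.23 CPM in *met-2*, against 0.279 and 1.36 CPM in N2. Its target *lst-1* had 1.55 and 2.47 CPM in *met-2*, against 1.82 and 2.04 CPM in N2. The N2 non-muscle cells had 84.4 and 60.01 CPM of *glp-1* and 207 and 168 CPM of *lst-1*. The genes of the Pumilio proteins that maintain stem cells were not called either. *fbf-1* had 1.91 and 3.32 CPM in *met-2* and 1.26 and 0.906 CPM in N2. *fbf-2* had 3.6 and 5.24 CPM in *met-2* and 1.75 and 1.43 CPM in N2 (1.44 ± 0.621, adjusted p 0.381). *gld-1*, a translational repressor of early meiosis, was the exception among these markers, at 18.8 and 24.2 CPM in *met-2* and 1.75 and 0.604 CPM in N2 (4.15 ± 0.496, adjusted p 0.000309).

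The whole germline marker list had 9 of 25 members higher (36%), beside 2.17% of all genes tested. Its summed level was 2583 and 2655 CPM in *met-2* muscle, against 184 and 177 CPM in N2 muscle, and 5127 and 3974 CPM in N2 non-muscle cells. *glh-1* alone made up 70.02% and 66.8% of that sum in *met-2*, 16.103% and 8.36% in N2 muscle, and 37.0% and 34.8% in non-muscle cells. Without *glh-1* the sums were 774 and 881 CPM in *met-2*, 154 and 162 CPM in N2 muscle, and 3229 and 2590 CPM in non-muscle cells. Both *met-2* libraries exceeded both N2 muscle libraries for 13 of the 25 markers and lay below them for 3. Among all genes tested, these shares were 23.6% and 19.2%. The part of germ cells carried over in the sort was not tested.

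**Figure D2:**
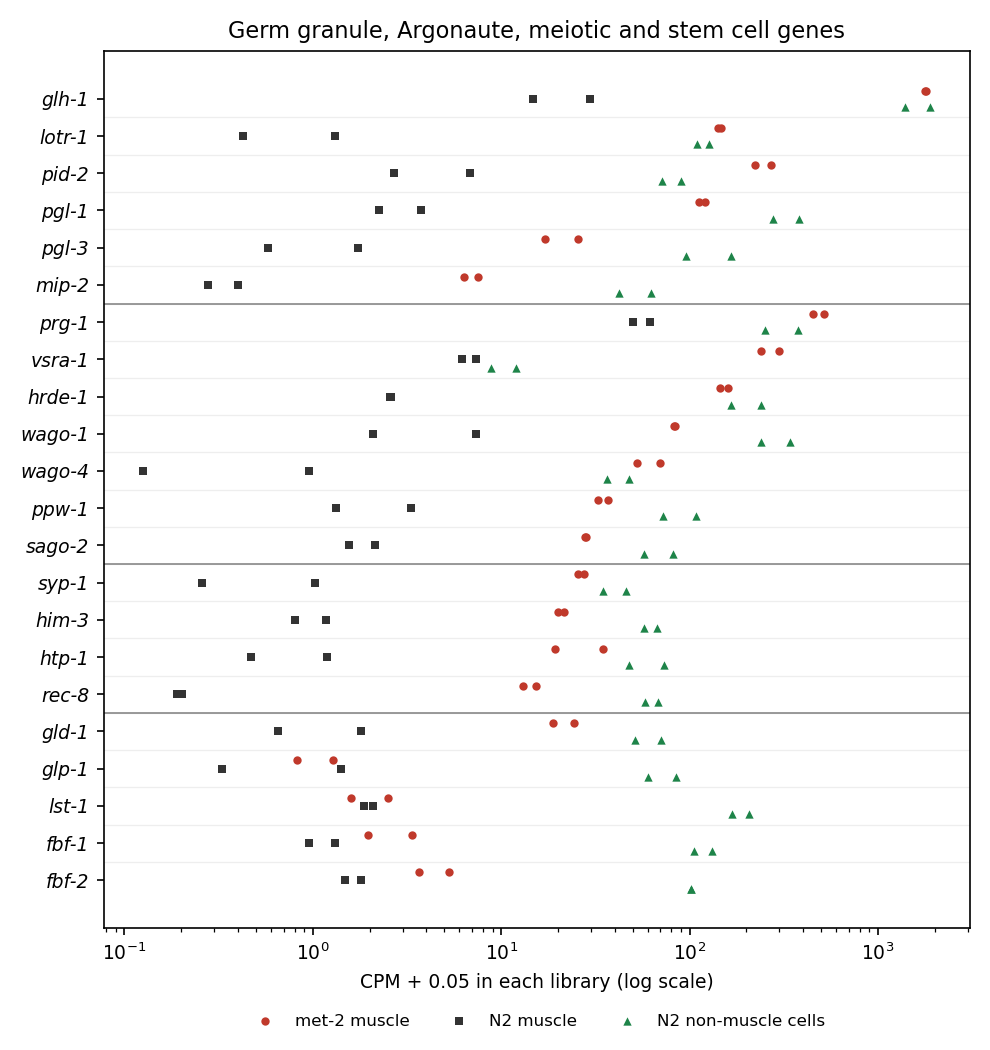
CPM of each library (horizontal axis, log scale after 0.05 was added) for germ granule genes, Argonautes, meiotic genes and germ cell regulators, from top to bottom, with 1 symbol per library and 2 libraries per group. The met-2 muscle libraries lie right of the N2 muscle libraries for the called genes, while glp-1, lst-1, fbf-1 and fbf-2 stay far to the left of the N2 non-muscle cells.

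Multicopy families held the highest shares of called members. All 5 genes of the *enu-3* family, named for a mutation that enhances axon outgrowth defects, were higher. Their *met-2* levels ranged from 68.4 to 188 CPM and their N2 levels from 1.21 to 3.98 CPM. *enu-3.3* had 177 and 165 CPM in *met-2*, against 2.096 and 1.43 CPM in N2 (6.56 ± 0.257, adjusted p 6.21e-08), and *enu-3.2* had 188 and 183 CPM in *met-2*, against 2.096 and 3.32 CPM in N2. The family is spread over chromosomes I and III. Because only reads with 1 best position were counted, near-identical copies share an uncertainty that the counts do not show.

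Of 11 tested *pals* genes, which form a family expanded in nematodes, 6 were higher (54.5%) and none was lower. *pals-38* had 29.5 and 30.5 CPM in *met-2* and no count in N2, at least 276-fold higher (adjusted p 2.96e-07). *pals-33* had 16.45 and 14 CPM in *met-2* and *pals-27* had 6.92 and 8.18 CPM, both again with no count in N2. *pals-39* reached 9.39 and 11.6 CPM in *met-2*, with 1 count in N2. *pals-26* and *pals-37* completed the group at 8.47 and 4.78 CPM and at 1.62 and 2.78 CPM in *met-2*, against 0.140 and 0.0755 CPM and no count in N2. *pals-30* had 1.34 and 0.308 CPM in *met-2* and no count in N2, and it was not called (adjusted p 0.172). *pals-29*, with 4 and 1 counts in *met-2* and none in N2, fell under the filter on low counts. None of the 6 tested genes on the intracellular pathogen response list, which includes some *pals* genes, was called. Their median log2FC was 1.03 (range 0.19 to 2.02), beside 0.01 for all genes tested. Both *met-2* libraries lay above both N2 libraries for 4 of the 6 and below them for 0, beside 23.6% and 19.2% of all genes tested.

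F-box and related adaptor genes of protein degradation gave fewer calls. Of 42 *fbxa* genes, 3 were higher (7.14%): *fbxa-24* at 185 and 193 CPM in *met-2* and 38.9 and 31.1 CPM in N2, *fbxa-174* at 7.62 and 7.25 CPM in *met-2* and 0 and 0.0755 CPM in N2, and *fbxa-206* at 3.95 and 9.33 CPM in *met-2* and no count in N2. *fbxb-56*, *bath-1* and *bath-2* were also higher, from 1 of 6 and 2 of 19 tested genes. Among 15 tested histone genes, *his-74* (a histone H3 variant) had 30.1 and 47.8 CPM in *met-2*, against 0.140 and 0.377 CPM in N2, and *cpar-1* (a relative of the centromeric histone) had 3.6 and 3.08 CPM in *met-2* and no count in N2. The chemoreceptor genes *sri-31* and *sri-62* stood at 26.8 and 26.8 CPM and at 16.09 and 13.7 CPM in *met-2*, against 1.19 and 0 CPM and no count in N2, and were the only calls of 56 chemoreceptors tested. No nuclear hormone receptor (97 tested), cuticle collagen (67), C-type lectin (23) or neuropeptide or insulin gene (27) was called.

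Of 16 tested H3K9 methylation and reader genes, 1 was called (6.25%, beside 2.17% of all genes tested). It was *lin-13*, a zinc finger protein that works with the H3K9 reader HPL-2, at 170 and 159 CPM in *met-2* and 76.5 and 59.9 CPM in N2 (1.25 ± 0.193, adjusted p 0.00226). None of 19 synMuv and DREAM repressor genes was called. Outside that list, the SET domain genes *set-9* (30.1 and 28.9 CPM in *met-2*, 1.47 and 1.81 CPM in N2) and *set-31* (412 and 454 CPM in *met-2*, 74.6 and 53.7 CPM in N2) were higher. None of 26 replication and cell division genes on the list used here was called, but some cell division genes outside it were higher. They were picked after their values were seen and include *spd-5*, *spd-1* and *mat-2*. *spd-5*, a centrosome scaffold, had 53.3 and 64.6 CPM in *met-2* and 8.87 and 13.1 CPM in N2. *spd-1*, a spindle midzone protein, had 22.2 and 16.7 CPM in *met-2* and 0.908 and 1.74 CPM in N2. *mat-2*, a subunit of the anaphase-promoting complex, had 48.1 and 56.6 CPM in *met-2* and 21.2 and 12.5 CPM in N2. With a replicate block, *mat-2* was not called.

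Muscle genes were not among the called genes. Over 6 lists of muscle genes (thick filament, thin filament and troponin, dense body and attachment, excitation and calcium, dystrophin complex, fate factors), 0 of 82 tested genes were called by edgeR, and the median log2FC was 0.05, with a range of -0.82 to 1.24. *unc-54*, the main myosin heavy chain, had 41695 and 41709 CPM in *met-2*, against 45061 and 45304 CPM in N2 (-0.14 ± 0.174, adjusted p 0.844). *myo-3*, the myosin whose promoter drove the sorted RFP, had 4541 and 4779 CPM in *met-2*, against 4457 and 4100 CPM in N2. *unc-15*, the paramyosin of thick filament cores, had 23385 and 23826 CPM in *met-2*, against 21377 and 21133 CPM in N2. No difference between the groups passed the test for any of these transcripts. *hlh-1*, the MyoD-like factor of muscle fate, had 27.9 and 27.1 CPM in *met-2*, against 17.8 and 21.8 CPM in N2, and was not called (0.44 ± 0.275, adjusted p 0.619). The endogenous *baf-1* and *let-858* genes, parts of which the sorting transgene carries, were not called, at 3.6 and 6.09 CPM and at 27.7 and 32.6 CPM in *met-2*, against 4.54 and 4.53 CPM and 29.2 and 28.2 CPM in N2. None of 73 cytosolic ribosomal protein genes was called, with a median log2FC of -0.20.

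**Figure D3:**
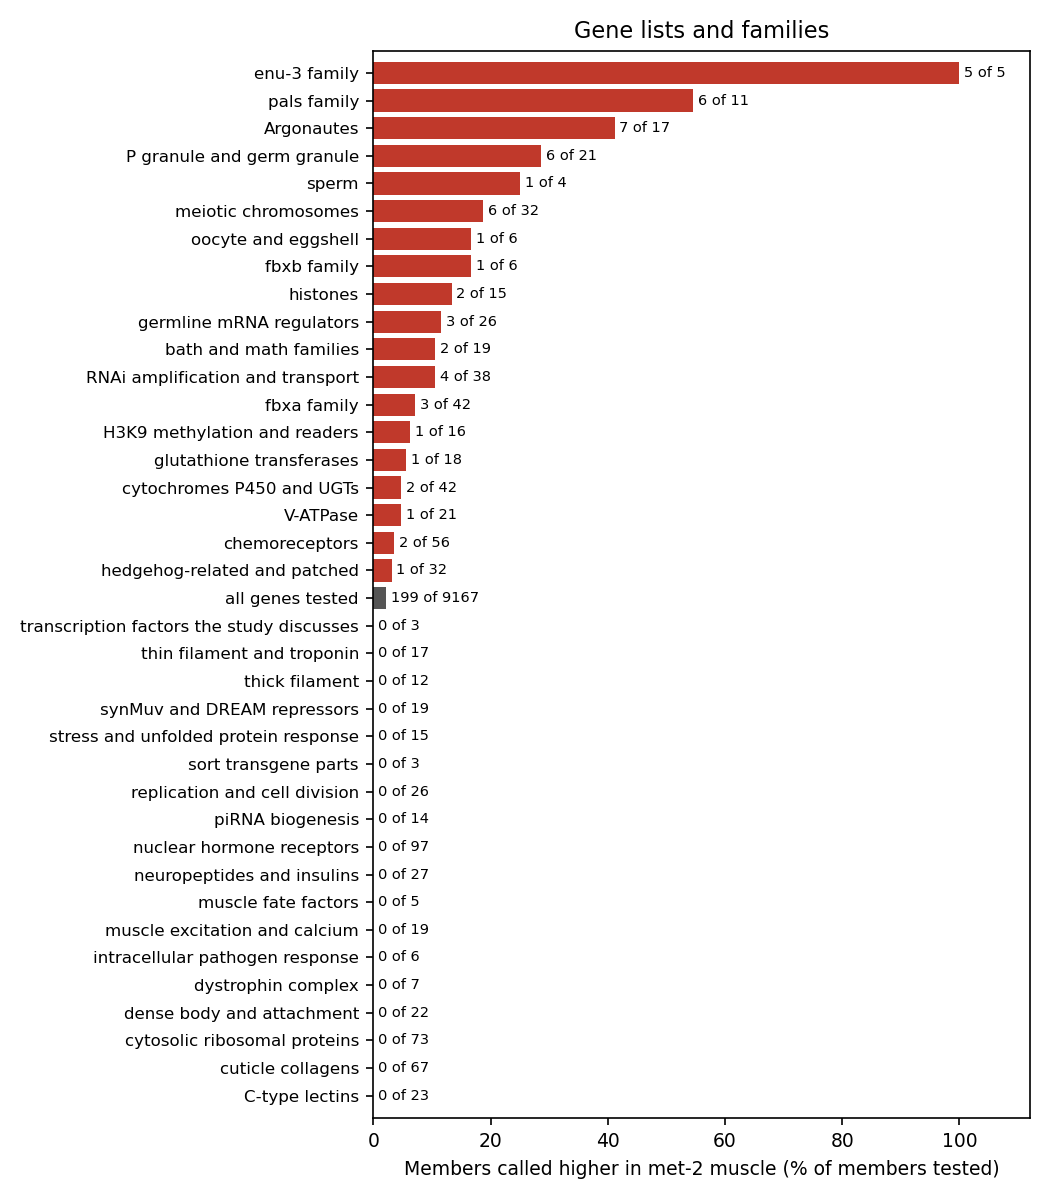
Percentage of tested members called higher in met-2 muscle for each of 37 gene lists and families and for all genes tested (grey bar), with the number of called and tested members beside each bar. The enu-3 family, the pals family, Argonautes and germ granule genes stand at the top, and 18 lists, all 6 muscle lists among them, have no called member.

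The 6 genes that fell were not members of any germline or muscle list. The largest fall by log2FC was that of *clc-26*, a claudin-like gene, at 2.75 and 1.54 CPM in *met-2*, against 20.5 and 20.6 CPM in N2 (-3.27 ± 0.431, adjusted p 0.000704). Y58A7A.3 had 1.06 and 0.771 CPM in *met-2*, against 11 and 11.2 CPM in N2. The tetraspanin *tsp-7* had 2.54 and 3.16 CPM in *met-2*, against 18.4 and 10.8 CPM in N2. In each of them the N2 libraries stood clearly above. C36C5.12 had 7.27 and 10.7 CPM in *met-2*, against 31.8 and 37.1 CPM in N2. W04E12.7, the most abundant of the group, had 102 and 96.1 CPM in *met-2*, against 303 and 279 CPM in N2 (-1.58 ± 0.188, adjusted p 0.000309). *sbt-1*, a chaperone of a neuropeptide-processing protease and one of the neuronal markers, had 24.2 and 27.5 CPM in *met-2*, against 62.9 and 78 CPM in N2. The summed level of the 19 neuronal markers was 206 and 187 CPM in *met-2*, against 261 and 262 CPM in N2, and its part in the fall of *sbt-1* was not tested. Leaving out either *met-2* replicate left 2 lower genes, and leaving out N2 replicate 1 or 2 left 5 or 4, of which 3 were among the 6. *clc-26* and W04E12.7 were called each time.

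The higher genes were set beside N2 non-muscle cells, which hold the other larval tissues, the germline among them. For 94 of the 199 genes (47.2%) both *met-2* muscle libraries exceeded both non-muscle libraries, which was the case for 21.3% of all genes tested. For 86 genes (43.2%) they lay below, beside 68.5% of genes tested. The 199 genes were chosen for high values in these *met-2* libraries, so both shares are partly fixed by the choice. With TMM scaling, which sets levels by the bulk of genes, the split was 135 above and 36 below, beside 44.2% and 38.8% of genes tested, so the comparison of levels between these cell populations depends on the scaling. F15D4.5 and *vsra-1* stood far above, with 20.5 and 19.5 CPM and 11.9 and 8.78 CPM in non-muscle cells. In 17 genes (8.54%), beside 1.27% of genes tested, the non-muscle libraries held 3 counts or fewer in all, with the same reservation about the choice. They include WBGene00019208, *pals-33*, *pals-27* and R03H10.6. Of the 28 called members of the germline and small RNA lists, 8 were above the non-muscle libraries and 18 below on library totals, and 14 were above and 7 below with TMM scaling.

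Position along the genome was described for the genes that could be placed on a later assembly. The X chromosome held 4 of the higher genes among 1210 tested (0.331%), and the autosomes held 194 among 7808 (2.48%). *rcs-1*, F54F7.6, *pgp-6* and F41G4.7 were those on X, named after their positions were seen. Chromosome I had the highest share, with 57 of 1661 (3.43%), and chromosomes III and IV the lowest of the autosomes (1.90% each). Each autosome was divided into 5 equal bins by gene order. The bins at both ends held 92 higher genes of 2652 tested (3.47%), and the inner bins held 102 of 5156 (1.98%). That pattern varied by chromosome, since bin 3, at the centre, reached 3.92% on chromosome I and 0.265% on chromosome II.

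**Figure D4:**
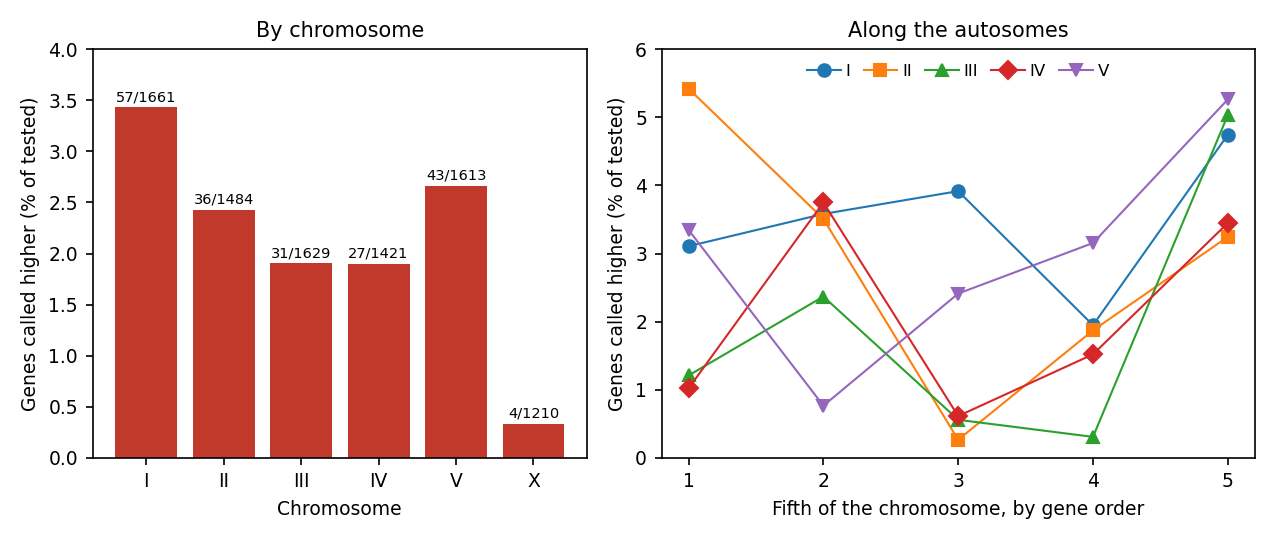
Percentage of tested genes called higher in met-2 muscle, by chromosome with counts above each bar (left) and in 5 bins of each autosome by gene order (right, 1 line per autosome). The X chromosome has the lowest bar at 0.331%, and in the right panel the central bin is low on chromosomes II, III and IV but not on I and V.

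Some higher genes were neighbours. Runs of adjacent called genes, in the order of annotated genes, numbered 22 and included 50 genes. How many runs 199 genes placed without regard to position would give was not tested. The longest runs had 4 genes each. One on chromosome V joined *ddn-1* with B0507.7, B0507.8 and B0507.9, of which B0507.8 had 29.4 and 24.3 CPM in *met-2*, against 0.0699 and 0.377 CPM in N2. The other, on chromosome I, joined *lotr-1* and *zhp-2* with D1081.6 and *cdc-5L*, a splicing factor that was already expressed in N2 (83.4 and 81.2 CPM in *met-2*, 28.6 and 22.1 CPM in N2). *pals-37*, *pals-38* and *pals-39* formed a run on chromosome V, as did 3 genes of the Y57G11C group on chromosome IV. The pairs included *pgl-1* with *him-3*, *prg-1* with D2030.7, *set-9* with Y24D9B.1, *ife-5* with Y57A10A.31, and *nxf-2*, an RNA export factor family member, with *set-31*. Genes of a run can share reads or an operon, and the part of either was not tested. Pseudogenes made up 6 of the 199 (3.02%, beside 0.916% of genes tested), and the median exonic width was 1603 bases, beside 1490.

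The same allele was compared in seam cells, the lateral epidermal cells, sorted by other reporters in a separate experiment, so tissue, strain and experiment cannot be told apart. Of the 199 genes, 79 were also higher in *met-2* seam cells relative to N2 seam cells, where 2.08% of 12591 genes tested were called higher. These are 39.7% of the muscle set and 30.2% of the 262 genes of the seam set. The difference between the effects was tested as an interaction, which 65 of 12887 genes passed at an adjusted p under 0.01 (0.504%). Of the 199, 35 passed with a larger rise in muscle and 0 with a smaller one. The genes were chosen on the same muscle libraries, so this direction is partly fixed by the choice. Without seam *met-2* replicate 1 or 2 the count was 23 or 21. *vsra-1* had 39.4 and 42.3 CPM in *met-2* seam cells, against 67.6 and 67.6 CPM in N2 seam cells, a change that was not called there (-0.60 ± 0.207, adjusted p 0.0916), and the effects differed between the tissues (difference of log2 effects 5.85 ± 0.542, adjusted p 8.61e-05). *lotr-1* had 23.1 and 18.7 CPM in *met-2* seam cells, against 5.25 and 5.80 CPM in N2 seam cells (5.31 ± 0.454). *set-31* had 54.3 and 45.1 CPM in *met-2* seam cells, against 8.95 and 9 CPM in N2 seam cells, and the effects differed by 0.08 ± 0.392 (adjusted p 1).

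The germline mutation was also set beside the loss of the protein in larvae. In muscle of a strain with a degron on endogenous MET-2, auxin triggers degradation of the protein. With auxin, 66 of the 199 genes were higher than without it, where 0.913% of 11393 genes tested were called higher. They are 33.2% of the muscle set and 63.5% of the genes called with auxin. The log2FC with auxin was positive for 180 of the genes tested there (10 of the 199 were not), with a median of 1.13, beside 0.08 for all genes tested. The interaction passed for 58 of 11099 genes (0.523%), and 54 of the 199 passed with a larger rise in the mutant, 0 with a smaller one, with the same reservation about direction. Leaving out 1 library gave 26 (N2 muscle replicate 2, auxin replicate 2), 28 (auxin replicate 1), 31 (N2 muscle replicate 1), 33 (*met-2* replicate 2, no auxin replicate 2), 34 (*met-2* replicate 1) or 45 (no auxin replicate 1). *glh-1* had 302 and 305 CPM with auxin, against 34.3 and 71.4 CPM without (difference of log2 effects 3.88 ± 0.434, adjusted p 0.000429). *hrde-1* had 74.6 and 69.9 CPM with auxin, against 8.23 and 22.4 CPM without (3.74 ± 0.457, adjusted p 0.000795). *set-31* had 140 and 173 CPM with auxin, against 17.7 and 25 CPM without, and its effects differed by -0.04 ± 0.384 (adjusted p 1). None of the 6 lower genes was called in seam cells or with auxin. Called higher in the mutant muscle, in mutant seam cells and with auxin were 35 genes, and 77 were called in the mutant muscle alone among genes tested in every fit.

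**Figure D5:**
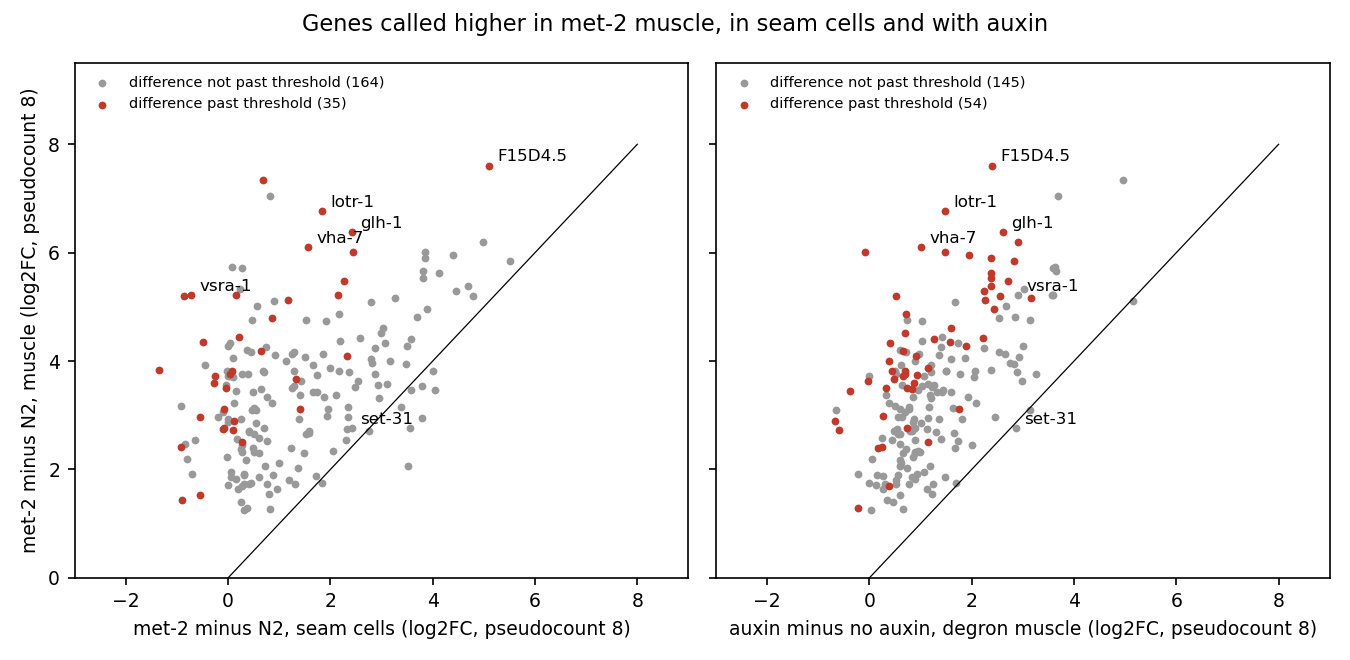
log2FC of the 199 genes in met-2 against N2 muscle (vertical axis) and in met-2 against N2 seam cells (left) or with against without auxin in degron muscle (right), with a pseudocount of 8. Red points passed the test of the difference (35 in the left panel, 54 in the right), and most points lie above the line of equal change, which the choice of genes by their muscle rise partly fixes.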

How the data were processed

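RNA from sorted L3 cells was made into Smart-Seq2 libraries, per the labels. The authors deposited untransformed counts by gene, in a separate table for each experiment. Per the study's methods, hisat2 (through QuasR) placed the reads on ce10, and uniquely placed same-strand reads in WS220 exons were counted. Smart-Seq2 does not usually retain strand, so antisense neighbours are uncertain, and the series text describes ribosomal RNA depletion instead. A deposited exonic width, in bases, gave RPKM. The 4 libraries held 12966116 to 14313547 counts.

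Counts were tested in R 4.3.3 with edgeR 4.0.16 (quasi-likelihood, TMM, filterByExpr, 8 muscle libraries, no covariate). Of the tested genes, 3 had 0 counts in all 4 libraries compared and passed through other genotypes. SE is the fitted change over the square root of F. Interactions used 16 (muscle, seam) and 12 libraries (muscle, degron). Labels give 2 replicates per group. Same-numbered *met-2* and N2 libraries deviated with r = 0.05, so numbers were not treated as pairs. The fits were tested on simulated data. Names were found for 19182 of 20392 IDs, and WBcel235 placed 19870; no coordinates are given because the builds differ.

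Members and lists were chosen with earlier results of these data known. Named genes are the 25 largest rises, all falls, called list members with up to 4 uncalled members per list, 14 fixed genes, the 10 most abundant called genes, called neighbours and the 5 smallest adjusted p; others are marked in the text. DESeq2 1.42.0, other scalings, filters, thresholds and left-out libraries were alternatives.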

Additional observations from a re-analysis of the deposited data

Results flagged for a closer look

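The difference between effects passed the interaction test for 35 of the 199 genes between muscle and seam cells, and for 54 between the *met-2* mutation and auxin in degron muscle. Strain, sort and experiment differ with the contrast in both, and the part of each was not tested. Among the 25 genes with the largest rise that had more than 3 counts over both N2 muscle libraries and counts in each arm, the muscle effect exceeded the seam effect by log2 values of 4.87 for C38D9.2, 2.55 for F15D4.5, 3.68 for *glh-1*, 5.31 for *lotr-1* and 5.85 for *vsra-1*. The mutant effect exceeded the auxin effect by 7.54 for C38D9.2, 5.51 for F15D4.5, 3.88 for *glh-1* and 6.01 for *lotr-1*. It did so by 3.33 for *enu-3.2*, 3.69 for *enu-3.3*, 3.22 for *enu-3.5* and 3.57 for *enu-3.6*. The same difference was 4.84 for *herd-1*, 4.91 for *his-74*, 3.74 for *hrde-1*, 4.06 for *snpc-1.2* and 5.00 for *wago-4*. For each gene given in the auxin contrast, both degron libraries without auxin lay above both N2 muscle libraries. F15D4.5 had 7.18 and 9.69 CPM without auxin, against 1.82 and 3.17 CPM in N2 muscle. *lotr-1* had 6.31 and 9.40 CPM, against 1.26 and 0.377 CPM. In the seam contrast, both N2 seam libraries lay above both N2 muscle libraries for C38D9.2, F15D4.5, *lotr-1* and *vsra-1*. For *glh-1* the N2 libraries of the tissues overlapped. F15D4.5 had 9.93 and 15.2 CPM in N2 seam cells. Its *met-2* levels were 449 and 423 CPM in seam cells and 561 and 606 CPM in muscle. C38D9.2 had 1.64 and 2.59 CPM in N2 seam cells, against 0.210 and 0.302 CPM in N2 muscle. The part of these unequal reference levels in the differences was not tested for either contrast.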

How the results depend on the processing

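Of the 199 higher genes, 110 were called under all 14 alternatives, and of the 6 lower genes, 2 were. The counts of higher and lower genes were 334 and 49 without a filter on low counts, 332 and 42 with the likelihood ratio test, 266 and 20 with DESeq2, 185 and 10 with the 4 compared libraries alone, and 192 and 6 with a replicate block. Leaving out 1 replicate gave 137 to 144 higher and 2 to 5 lower genes, and in those fits the lone sample is assumed to vary like the other groups. In the lists, germline mRNA regulators and *fbxa* genes each had 5 higher members without the filter and with DESeq2. The likelihood ratio test gave 5 and 7 in them. Leaving out a replicate gave 2 to 3 in each of them and 2 to 3 in RNA interference amplification. For muscle against seam cells, 609 genes passed without a filter, 107 of them from the 199, and leaving out a replicate gave 27 to 60 and 21 to 31. For mutation against auxin, 285 passed without a filter, 126 of them from the 199, a replicate block gave 34 and 31, and leaving out a replicate gave 27 to 47 and 26 to 45. Between *met-2* and N2 libraries of the same replicate number, deviations correlated at r = 0.05, with only 2 pairs, and the replicate block kept 185 of the 199 higher genes. The share of higher genes under 5 RPKM in N2 was 88.9% with the mean and 89.4% with N2 replicate 2 alone. When a replicate was left out, uncalled genes crossed 0: the fitted log2 change ranged from -0.31 to 0.36 for *baf-1*, -0.50 to 1.80 for *glp-1*, -0.029 to 0.12 for *let-858*, -0.29 to 0.29 for *lst-1* and -0.16 to 0.19 for *set-25*. Genes with few counts in N2 have wide counting intervals at this depth.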
